A study of Bos taurus with 129 samples.

Results

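The 10 genes described here code for superoxide dismutases and for the enzymes and carriers that remove hydrogen peroxide and lipid peroxides or keep protein thiols reduced. They were chosen by name and function, with earlier results of these data known, and are 10 of the 32395 genes with counts in the series. They are SOD1, SOD2, CAT, GPX1, GPX4, PRDX1, PRDX2, TXN, TXNRD1 and GLRX3. The paper names GLRX3 among genes that drove the main patterns of variation in its healthy libraries. Whole blood of 26 crossbred beef steers was sequenced at 5 bleedings between day 0 and day 60 (days 13, 28 and 45 lay between), which gave 59 libraries of healthy and 70 of BRD animals. The INR diet carried copper, cobalt, manganese and zinc as sulfates, and the AAC diet carried copper, manganese and zinc complexed with amino acids and cobalt as a glucoheptonate. COMBO animals had the AAC diet and a drench by mouth before shipment, on day 0 and at any treatment for illness. The drench held trace minerals, selenium among them, and vitamin E. Animals labelled BRD were diagnosed with bovine respiratory disease, on a date not analysed here, and those labelled healthy were never diagnosed or treated. The AAC group held 4 healthy and 4 BRD animals, COMBO 4 healthy and 3 BRD animals, and INR 4 healthy and 7 BRD animals, or 12 healthy and 14 BRD animals in all. Every animal was bought through an order-buyer with unknown history, was transported, vaccinated and dewormed, and received 1 of the 3 supplements, so that no unsupplemented animals were compared. Ages were not given. Each supplement was given in pens of its own, 2 for AAC, 2 for COMBO and 3 for INR by the labels. By the methods the steers changed pens at intervals. The tests of supplements and the main tests of the disease label carry no term for pen. Within COMBO each pen held 1 disease label, so that label and pen cannot be told apart there. Of the INR pens, pen 7 held BRD animals only.

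Superoxide dismutases turn superoxide into hydrogen peroxide. SOD1, the cytosolic form, binds copper and zinc, and SOD2, the mitochondrial form, binds manganese, all of them metals that the steers were fed. Catalase, a heme enzyme, and the glutathione peroxidases and peroxiredoxins then reduce the peroxide, and GPX1, GPX4 and TXNRD1 carry selenocysteine. Phagocytes make superoxide on purpose with the NADPH oxidase, and SOD2 is known to be induced in them by inflammatory signals, while red cells are known for large amounts of SOD1, CAT, GPX1 and PRDX2.

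Total counts per library ranged from 31613545 to 61692136 with a median of 44268685, and all 10 genes passed the filter on low counts, which left 18937 genes. Levels are given as CPM, the counts scaled to a common library size after TMM, which allow a gene to be compared between libraries but not with another gene of another length. The smallest count behind any value was 64, for GPX1. The 12 erythroid marker genes rose from a summed median of 239 CPM on day 0 to between 1944 and 6124 CPM on the later days, and the 7 neutrophil markers measured fell from 2019 CPM to between 1327 and 1473 CPM. In whole blood, fewer cells of a type and less RNA per cell cannot be told apart, which holds for each change described here. A library of INR BRD animal 40, taken on day 60, had low RNA integrity by the methods and was the highest of all libraries in SOD1, GPX4, PRDX1, PRDX2 and GLRX3. The day 13 library of INR healthy animal 50 was the least like the others over all genes, with a median r of 0.943 against up to 0.970, and was the lowest of all in SOD1.

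By coefficient of variation the levels of CAT, TXNRD1 and SOD1 varied least over the libraries, while those of SOD2 and GPX1 spread widely. SOD1 ranged from 51.8 to 115.2 CPM with a median of 74.9 and a coefficient of variation of 12.8%. SOD2 ranged from 93.1 to 720 CPM with a median of 215 and a coefficient of variation of 40.7%. The transcript of the manganese enzyme differed 7.74-fold between its lowest and highest library and that of the copper and zinc enzyme 2.22-fold. The first value rests on 1 library, of INR BRD animal 43 on day 0, without which the highest SOD2 level was 440 CPM.

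CAT, which splits hydrogen peroxide to water and oxygen, had the smallest spread of the 10, from 62.9 to 101.4 CPM around a median of 84.4 (coefficient of variation 8.81%). GPX1, the main cytosolic glutathione peroxidase, had the largest, from 1.65 to 137 CPM around a median of 10.234 (coefficient of variation 120.6%). GPX4, which reduces lipid peroxides in membranes, ranged from 13.1 to 43.6 CPM around 23.8. The highest 3 libraries of GPX1 came from different animals, groups and days, which were AAC BRD animal 21 on day 0, AAC healthy animal 46 on day 45 at 90.34 CPM and COMBO BRD animal 54 on day 28 at 81.1 CPM.

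PRDX1 and PRDX2, peroxiredoxins that are recharged by thioredoxin, ranged from 84.8 to 208 CPM around 143 and from 64.7 to 183 CPM around 96.8. TXN, thioredoxin itself, ranged from 19.9 to 57.2 CPM, and TXNRD1, the reductase that returns it to its reduced state, from 121.9 to 241 CPM around 167. GLRX3, a glutaredoxin with a part in iron-sulfur cluster handling, ranged from 32.1 to 76.2 CPM around 46.3. These 5 genes had coefficients of variation between 11.9% for TXNRD1 and 20.3% for TXN.

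**Figure D1:**
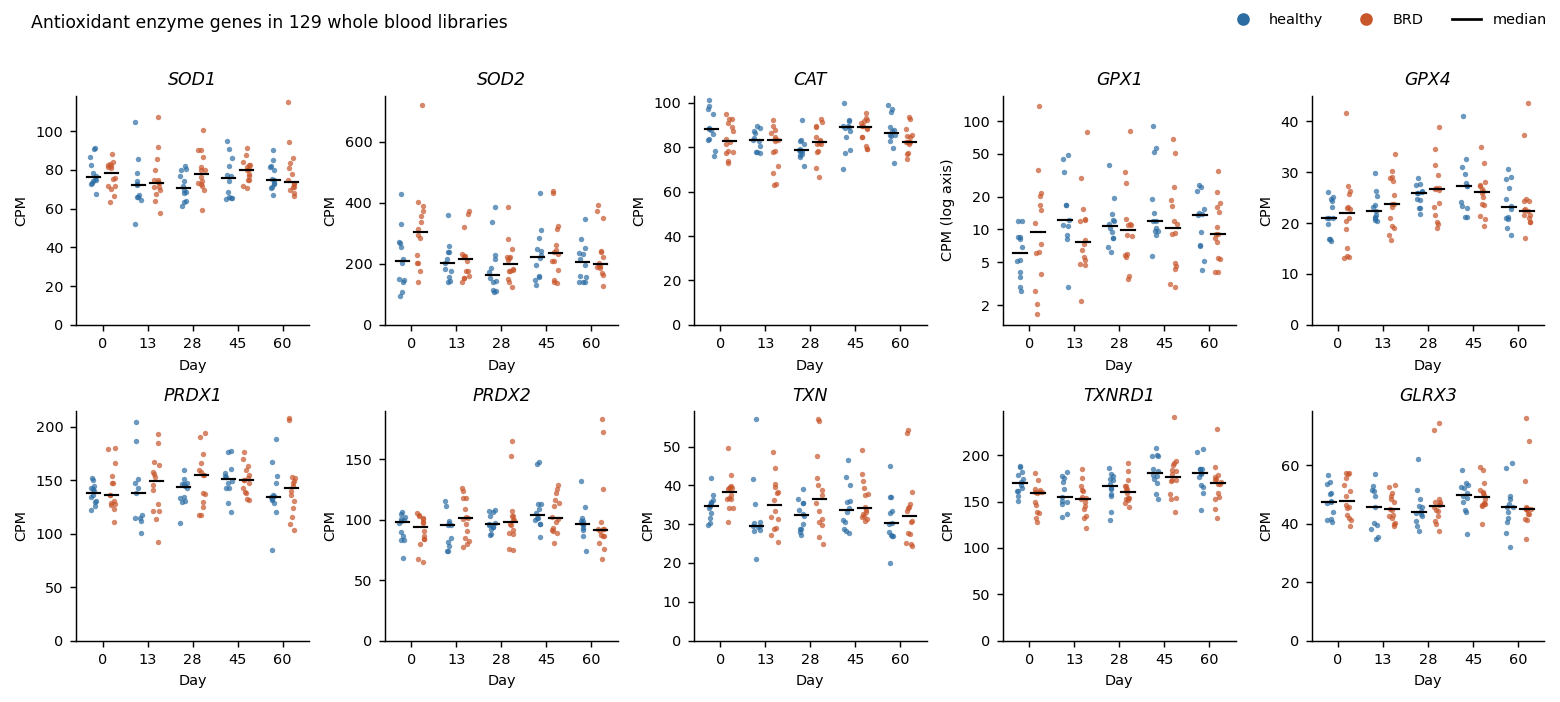
Level of each of the 10 genes in CPM by day, with 1 point per library, healthy in blue, BRD in orange and black bars at the medians; the GPX1 axis is logarithmic. Points of both labels overlap in every panel and on each day, SOD2 spreads from 93.1 to 720 CPM, and CAT stays between 62.9 and 101.4 CPM.

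The variance of each gene was divided between animals and days as a description, and with this many animals and few bleedings part of each share arises without any lasting difference. Differences between animals held 45.5% of the variance of log2 CPM for TXNRD1, 44.1% for SOD2 and 43.2% for GLRX3, and between 23.3% for PRDX1 and 31.6% for TXN in the other 7 genes. Differences between days held at most 18.411%, for TXNRD1, followed by 14.29% for GPX4 and 12.2% for CAT, and 2.92% for SOD1. The mean level of SOD2 per animal ran from 135 CPM in animal 10 (INR, healthy) to 387 CPM in animal 18 (COMBO, BRD), and that of SOD1 from 67.2 CPM in animal 10 to 88.6 CPM in animal 40.

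The change from day 0 within animals asked how these transcripts moved after arrival, with vaccination and transport shared by all 26 animals and 1 of the 3 supplements given to each. GPX4 was higher on each of the 4 later days, TXNRD1 was higher on days 45 and 60, and PRDX2 and GPX1 were higher on day 45. SOD2 was lower on day 28, CAT on days 13 and 28, and TXN on day 60. SOD1, PRDX1 and GLRX3 passed the test on no day. The changes were small apart from GPX1, with fold changes from 0.786 to 1.25 for the other genes that passed. By edgeR's quasi-likelihood test with animal as a block, a Benjamini-Hochberg FDR below 0.10 was reached by 2 of the 10 genes on day 13, 3 on day 28, 4 on day 45 and 3 on day 60. Over all genes, 34.4% passed on day 13, 34% on day 28, 27.5% on day 45 and 30.7% on day 60, so that the share among the 10 was near that of blood transcripts in general. The median log2 change of the 10 was -0.07, -0.02, 0.05 and -0.01 on the 4 days, against 0.01, 0.01, -0.00 and 0.01 over all genes.

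SOD1 had a median of 76.45 CPM on day 0 (63.2 to 91.5), 72.95 on day 13 (51.8 to 107.4), 74.3 on day 28, 77.6 on day 45 and 74.7 on day 60 (66.7 to 115.2). Its largest log2 change was -0.08 on day 13 (95% interval -0.18 to 0.02, FDR = 0.233), and 18 of 25 animals were below their own day 0. On days 45 and 60 the intervals ran from -0.11 to 0.09 and from -0.10 to 0.09. Without COMBO healthy animal 3, the day 13 change was -0.11 with an FDR of 0.0878.

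SOD2 had a median of 262 CPM on day 0 (93.1 to 720), 210 on day 13 (140 to 372), 180 on day 28 (106.8 to 388), 230 on day 45 (130 to 440) and 198 on day 60 (128.6 to 393). The distributions overlapped on every day, but 22 of 26 animals were lower on day 28 than on day 0. The log2 change on day 28 was -0.35 ± 0.12 (SE, FDR = 0.0198), and it was -0.23 on day 13 (FDR = 0.1504), -0.08 on day 45 (FDR = 0.719) and -0.19 on day 60 (FDR = 0.253). On day 13 it passed without animal 17 (FDR = 0.0989) or animal 57 (FDR = 0.0728). The neutrophil markers were lower on day 28 as well, and also on the days when SOD2 did not pass. Their summed median was 2019 CPM on day 0 and 1473, 1348, 1368 and 1327 CPM on days 13, 28, 45 and 60. Of the 7 measured, all above 0 in every library, 4 fell on day 28 and none rose, and their sum went from 1095 to 9614 CPM on day 0 to between 726 and 2301 CPM on day 28. Of the 6 monocyte markers, 4 fell on day 28, with a median log2 change of -1.11. The summed median of the monocyte markers was 1071 CPM on day 0 and 650, 609, 666 and 637 CPM on the later days. The part of both marker lists in the change of SOD2 was not tested.

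CAT had a median of 86.6 CPM on day 0 (73.1 to 101.4), 83.13 on day 13 (62.9 to 92.2), 81.4 on day 28 (66.7 to 92.8), 89.1 on day 45 and 85.167 on day 60. The log2 change was -0.10 ± 0.03 on day 13 (SE, FDR = 0.0155) and -0.09 ± 0.03 on day 28 (SE, FDR = 0.0265), and was 0.01 and -0.02 afterwards. It was lower in 17 of 25 animals on day 13 and in 20 of 26 on day 28. The platelet markers rose on these days, 6 of 6 on day 13 and 5 of 6 on day 28, and their summed median went from 749 CPM on day 0 (378 to 2333) to 1187 (512 to 2265) and 1430 CPM (717 to 2651). It was also above day 0 on days 45 and 60, at 1036 and 1227 CPM, when CAT did not pass. CAT had an r of -0.34 with them over all libraries, and their part in the change of CAT was not tested. Without COMBO BRD animal 16, the day 28 change was -0.07 with an FDR of 0.108.

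GPX4 had a median of 21.01 CPM on day 0 (13.1 to 41.6), 23.2 on day 13 (16.7 to 33.6), 26.0 on day 28 (19.01 to 38.9), 26.5 on day 45 (19.5 to 41.004) and 22.7 on day 60 (17.2 to 43.6). Ranges overlapped throughout, and 22 of 26 animals were above their own day 0 on day 28 and again on day 45. The log2 change was 0.16 ± 0.07 on day 13 (SE, FDR = 0.0936), 0.29 ± 0.07 on day 28 (SE, FDR = 0.00140), 0.32 ± 0.07 on day 45 (SE, FDR = 0.000461) and 0.19 ± 0.07 on day 60 (SE, FDR = 0.0435). The call of day 13 was lost when any 1 of 13 of the 26 animals was left out (animals 3, 9, 10, 17, 18, 23, 27, 41, 43, 46, 48, 49 and 54), with FDR up to 0.226, and also without the day 13 library of animal 50 alone (FDR = 0.109), and that of day 60 without COMBO BRD animal 54 (FDR = 0.168). The erythroid markers also rose, 9 of 12 on day 28 and 10 of 12 on day 45, with none falling, and their sum went from between 45.6 and 6995 CPM on day 0 to between 154 and 58857 CPM on day 45. The order over the days differed from that of GPX4. The summed median of these markers was highest on day 13, at 6124 CPM, when the change of GPX4 was smallest. It was 2431, 4579 and 1944 CPM on days 28, 45 and 60. Of this list, HBM was at 0 in 5 libraries and SLC4A1 in 12. Their part in the change of GPX4 was not tested.

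GPX1 had a median of 7.09 CPM on day 0 (1.65 to 137), 10.98 on day 13 (2.20 to 78.9), 10.6 on day 28 (3.53 to 81.1), 11.5 on day 45 (2.93 to 90.34) and 10.1 on day 60 (4.05 to 34.4). The log2 change on day 45 was 0.91 ± 0.33 (SE, FDR = 0.0398), with 20 of 26 animals above their day 0, and the other 3 days gave log2 changes from 0.51 to 0.65 that did not pass. Within single animals the change on day 45 ran from -3.62 to 4.66 on the log2 scale. Without COMBO BRD animal 16 the day 45 change was 0.61 and no longer passed (FDR = 0.205), and on day 13 it passed without AAC BRD animal 21, with a log2 change of 0.88 (FDR = 0.0459). The day 13 change also passed without animal 31, 42 or 54, with log2 changes from 0.71 to 0.76, and by DESeq2 (log2 change 0.66, FDR = 0.0890).

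In the thioredoxin group, PRDX2 had a median of 97.3 CPM on day 0 (64.7 to 106.1) and 101.9 on day 45 (80.3 to 147). Its log2 change on day 45 was 0.19 ± 0.06 (SE, FDR = 0.0180), with 19 of 26 animals higher. TXNRD1 had a median of 161 CPM on day 0 (127.99 to 188), 179 on day 45 (139 to 241) and 174 on day 60 (132 to 229). Its log2 change was 0.14 ± 0.03 on day 45 (SE, FDR = 0.00118) and 0.09 ± 0.03 on day 60 (SE, FDR = 0.0475), and 22 of 26 animals were higher on day 45. By supplement, 8 of 8 AAC, 5 of 7 COMBO and 9 of 11 INR animals were above their own day 0 in TXNRD1 on day 45. TXN, the substrate of that reductase, had a median of 36.25 CPM on day 0 (29.8 to 49.7) and 30.8 on day 60 (19.9 to 54.3). Its log2 change on day 60 was -0.18 ± 0.07 (SE, FDR = 0.0630), with 18 of 26 animals lower. Ranges of all 3 genes overlapped between the days, and the TXN call was lost without any 1 of 8 animals (6, 16, 18, 21, 30, 34, 39 and 46), with FDR up to 0.168. The TXNRD1 call of day 60 was lost without animal 6 (log2 change 0.07, FDR = 0.101), and TXN on day 13 passed without animal 3 (-0.17, FDR = 0.0543). PRDX1 had log2 changes between -0.01 and 0.08 and GLRX3 between -0.10 and 0.01, none of which passed, although GLRX3 on day 13 (FDR = 0.140) passed without animal 3, 10 or 27.

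**Figure D2:**
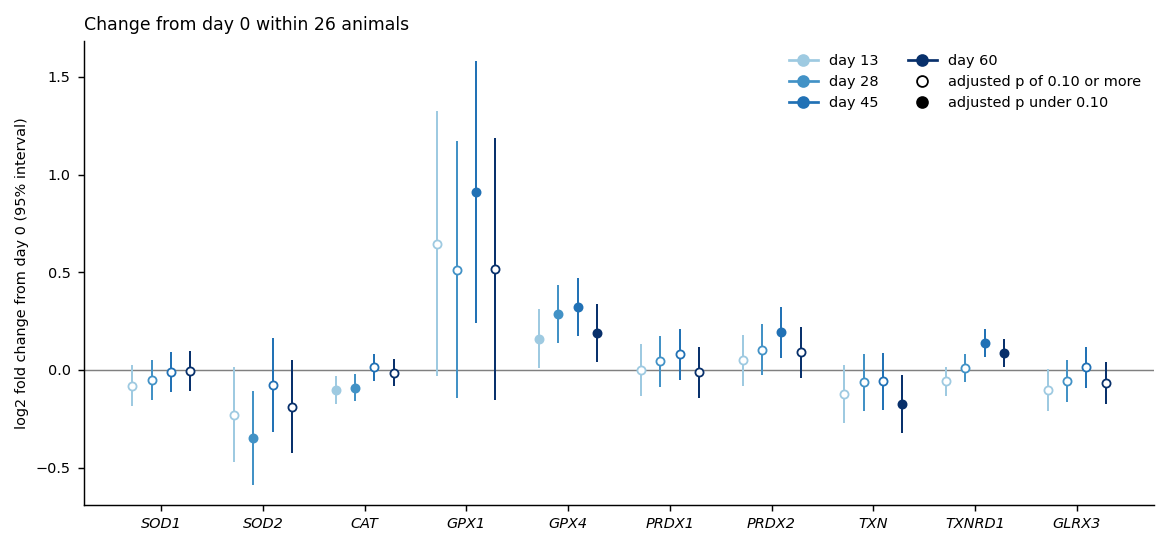
Log2 fold change from day 0 of the 10 genes on days 13, 28, 45 and 60 within 26 animals, with 95% intervals; filled points had an FDR below 0.10. GPX4 is filled and above 0 on all 4 days, SOD2 is filled on day 28 at -0.35, and the intervals of SOD1 cross 0 on each day.

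The changes were also fitted in healthy and BRD animals apart. In the 12 healthy animals GPX1 rose on all 4 days, with log2 changes of 1.44 (FDR = 0.00816), 0.96 (FDR = 0.0388), 1.58 (FDR = 0.00186) and 1.06 (FDR = 0.0350), while the BRD animals gave -0.14, 0.07, 0.22 and -0.04. On day 45, each of the 12 healthy animals and 8 of the 14 BRD animals were above their own day 0. SOD2 in contrast was lower in the BRD animals on day 13, with a log2 change of -0.46 ± 0.16 (SE, FDR = 0.0471), and on day 28, with -0.55 ± 0.16 (SE, FDR = 0.0190), while the healthy animals gave 0.01 and -0.15. In these separate fits 13.8%, 27.1%, 11.7% and 16.9% of genes passed in the healthy animals on the 4 days, and 18.5%, 14.8%, 14.9% and 13.8% in the BRD animals.

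The difference of the change between the labels was tested directly, and 0 of the 10 genes passed on any day. By edgeR no gene of the 18937 passed (0%), and 3 of the 40 tests of the 10 genes had an unadjusted p below 0.05 (7.5% against 4.39% over all genes). DESeq2 called 0 of the 10 as well. GPX1 differed by -1.58 ± 0.68 on day 13 (SE, BRD change minus healthy change on the log2 scale, unadjusted p = 0.0222, FDR = 1), and SOD2 by between -0.46 and -0.38 on the 4 days, with a smallest unadjusted p of 0.0561. The day 0 levels enter each of these differences.

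The disease label was compared at each day, which asks whether animals diagnosed with BRD at some time had other levels of these transcripts than animals never diagnosed. None of the 10 genes passed at any day. The values of both labels overlapped for each of the 10 genes at each day. The share of all genes that overlapped in this way was not computed. By edgeR 0.0158% of all genes passed on day 0, 0% on days 13 and 45, and 0.00528% on days 28 and 60. Of the 50 tests of the 10 genes, 5 had an unadjusted p below 0.05, a share of 10% against 5.48% over all genes, and DESeq2 and limma called 0 of the 10.

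SOD2 on day 0 lay between 93.1 and 430 CPM in the 12 healthy animals (median 211) and between 141 and 720 CPM in the 14 BRD animals (median 304). One BRD animal, INR animal 43, stood above the highest healthy value. The log2 difference was 0.56 ± 0.21 (SE, 95% interval 0.14 to 0.97, unadjusted p = 0.00903, FDR = 0.471), and from day 13 to day 60 it ranged from 0.09 to 0.20. The neutrophil markers had a summed median of 1808 CPM in healthy animals (1095 to 4437) and 2360 CPM in BRD animals (1188 to 9614) on day 0, with a median log2 difference of 0.48 over the 7 genes and none called. Animal 43 had the highest sum of all libraries. Their part in the difference of SOD2 was not tested.

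GPX1 on day 0 lay between 2.73 and 11.96 CPM in the healthy animals (median 6.03) and between 1.65 and 137 CPM in the BRD animals (median 9.44), of which 6 stood above the highest healthy value and 3 below the lowest. The log2 difference was 1.39 ± 0.47 (SE, unadjusted p = 0.00367, FDR = 0.350), and 0.84 without AAC BRD animal 21. From day 13 on it turned from one side to the other, between -0.64 and 0.31. In the 4 pens that held both labels, 8 healthy and 7 BRD animals from AAC and INR with pen as a term gave larger day 0 differences of 1.19 for SOD2 (FDR = 0.0137) and 2.20 for GPX1 (FDR = 0.0292), where 9.12% of all genes passed. This fit holds animal 21 but leaves out COMBO, where SOD2 on day 0 went the other way. Its medians in healthy and BRD animals were 302 and 203 CPM in COMBO, 202 and 333 in AAC, and 146 and 314 in INR. Pen and the loss of COMBO cannot be told apart in this fit.

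TXNRD1 on day 0 had medians of 170 CPM in healthy animals (151 to 188) and 160 in BRD animals (127.99 to 181), a log2 difference of -0.14 ± 0.06 (SE, unadjusted p = 0.0311, FDR = 0.643). On day 28, SOD1 had medians of 70.7 CPM in healthy animals (61.5 to 81.75) and 78.1 in BRD animals (59.3 to 100.7), a log2 difference of 0.16 ± 0.07 (SE, unadjusted p = 0.0369, FDR = 0.560). TXN on day 28 had medians of 32.3 CPM (27.27 to 39.02) and 36.5 (24.97 to 57.2), a log2 difference of 0.28 ± 0.11 (SE, unadjusted p = 0.0106, FDR = 0.523). None of these 3 passed the adjustment. For CAT, GPX4, PRDX1, PRDX2 and GLRX3 the log2 differences stayed between -0.10 and 0.14 at every day.

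Counts were also summed per animal over days 13 to 60, so that an animal counted once. By edgeR 0 of the 10 genes and 0% of 20291 genes differed between the labels, no member had an unadjusted p below 0.05, and DESeq2 called 0 of the 10. The nearest was TXN, with a log2 difference of 0.14 (95% interval -0.02 to 0.29, unadjusted p = 0.08001, FDR = 0.935). For SOD1 the interval was -0.02 to 0.17 and for SOD2 -0.17 to 0.47.

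**Figure D3:**
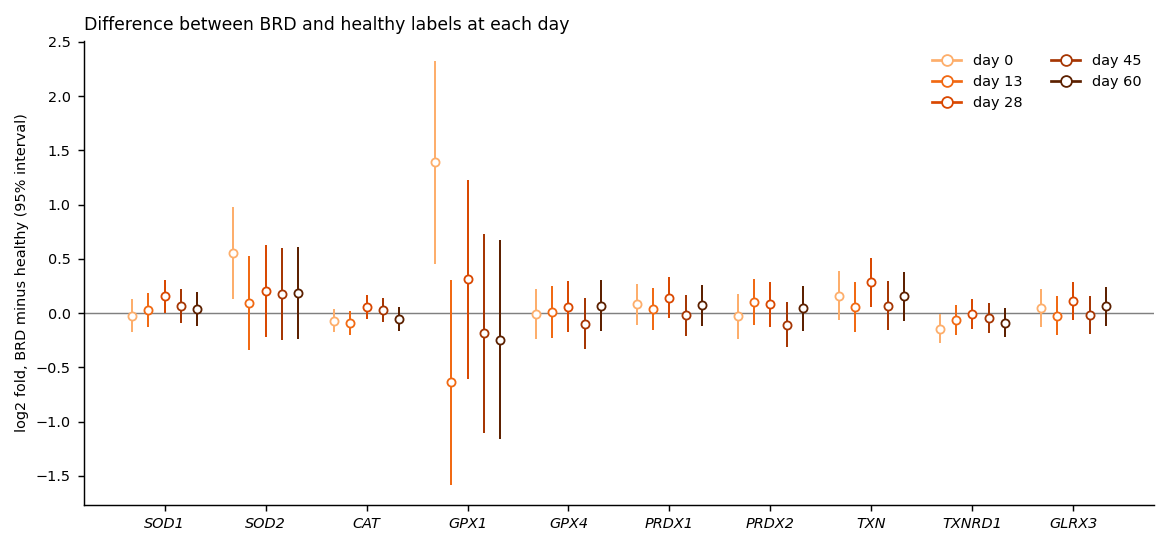
Log2 difference between BRD and healthy animals of the 10 genes at each day, with 95% intervals; open points had an FDR of 0.10 or more, which holds for all of them. SOD2 and GPX1 on day 0, at 0.56 and 1.39, have intervals above 0 but FDR of 0.471 and 0.350.

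The supplements were compared in pairs at each day. The question was whether the source of copper, zinc, manganese and cobalt, or the drench, went with other transcript levels of the metal-dependent and selenium-dependent enzymes. Enzyme amount and activity were not measured. The paper reports that intake of these minerals in its healthy cattle also differed between AAC and both other groups. In comparisons with AAC, source and amount eaten therefore cannot be told apart. None of the 10 genes passed in any of the 15 comparisons, the 2 dismutases included. On day 13 the fitted mean of the AAC animals was above those of both other groups in 10 of 10 genes, where 49.2% and 51.4% of all genes were above 0. The median log2 differences of the 10 were 0.20 against INR and 0.21 against COMBO, with the highest, of GPX1, at 0.59 and 0.77, where the medians over all genes were -0.00 and 0.01. The same AAC libraries enter both comparisons, and the 10 genes vary together in part. The median absolute log2 differences over all genes were 0.16 against INR and 0.18 against COMBO. On day 60, COMBO was also above INR in 10 of 10 genes, where 48.6% of all genes were above 0. By edgeR 0.0422% of genes passed between AAC and INR on day 13, 0.0106% on day 28 and 0% on the other days. Between AAC and COMBO 0.565%, 0.929% and 0.0317% passed on days 0, 13 and 28 and 0% later, and between COMBO and INR 0.00528% passed on day 60 and 0% before. Of the 150 tests of the 10 genes, 15 had an unadjusted p below 0.05, a share of 10% against 6.60% over all genes, and DESeq2 and limma called 0 of the 10.

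SOD1 on day 13 had a median of 78.55 CPM in AAC (71.40 to 107.4), 71.1 in INR (51.8 to 91.8) and 65.96 in COMBO (57.8 to 104.5). The groups overlapped, and the log2 difference was 0.23 ± 0.09 against INR (SE, unadjusted p = 0.0110, FDR = 0.351) and 0.21 ± 0.10 against COMBO (SE, unadjusted p = 0.0340, FDR = 0.341). The 8 T cell markers had summed medians on day 13 of 1503 CPM in AAC (999 to 1823), 1241 in INR (852 to 1661) and 1189 in COMBO (932 to 1853), with none called, and their part in the difference of SOD1 was not tested. SOD2 on the same day had medians of 224 CPM in AAC (142 to 372), 210 in INR (154 to 363) and 176 in COMBO (140 to 360). Over the 15 comparisons the log2 differences of SOD1 ranged from -0.05 to 0.23 and those of SOD2 from -0.39 to 0.41, with no unadjusted p of SOD2 below 0.107.

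CAT on day 13 had medians of 87.5 CPM in AAC (78.5 to 89.4), 83.13 in INR (62.9 to 92.2) and 77.8 in COMBO (63.6 to 89.7). Its log2 difference between AAC and COMBO was 0.18 ± 0.07 (SE, unadjusted p = 0.00874, FDR = 0.216), the smallest FDR among the 10 genes. GPX4 on day 13 had medians of 28.3 CPM in AAC (20.9 to 33.6), 23.2 in INR (17.6 to 28.9) and 20.36 in COMBO (16.7 to 29.9), with a log2 difference between AAC and COMBO of 0.39 ± 0.15 (SE, unadjusted p = 0.0117, FDR = 0.241). In the BRD animals alone, GPX4 passed between AAC and COMBO on day 0 (0.78, FDR = 0.0372) and on day 13 (0.70, FDR = 0.0946), where 12.9% and 5.93% of all genes passed. The summed erythroid markers had medians on day 13 of 12715 CPM in AAC (230 to 84882), 6783 in INR (436 to 40467) and 1605 in COMBO (175 to 10382), with a median log2 difference between AAC and COMBO of 1.69 over 12 genes and none called. Their part in these differences was not tested.

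GPX1 on day 0, the first day sampled, spread widely within each supplement. Its median was 11.9 CPM in AAC (5.24 to 137), 3.92 in INR (2.06 to 35.4) and 6.83 in COMBO (1.65 to 16.9), with log2 differences of 1.51 against both (unadjusted p = 0.00608 and 0.0148, FDR = 0.999998 and 0.295). Without AAC BRD animal 21 these were 0.69 and 0.70.

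**Figure D4:**
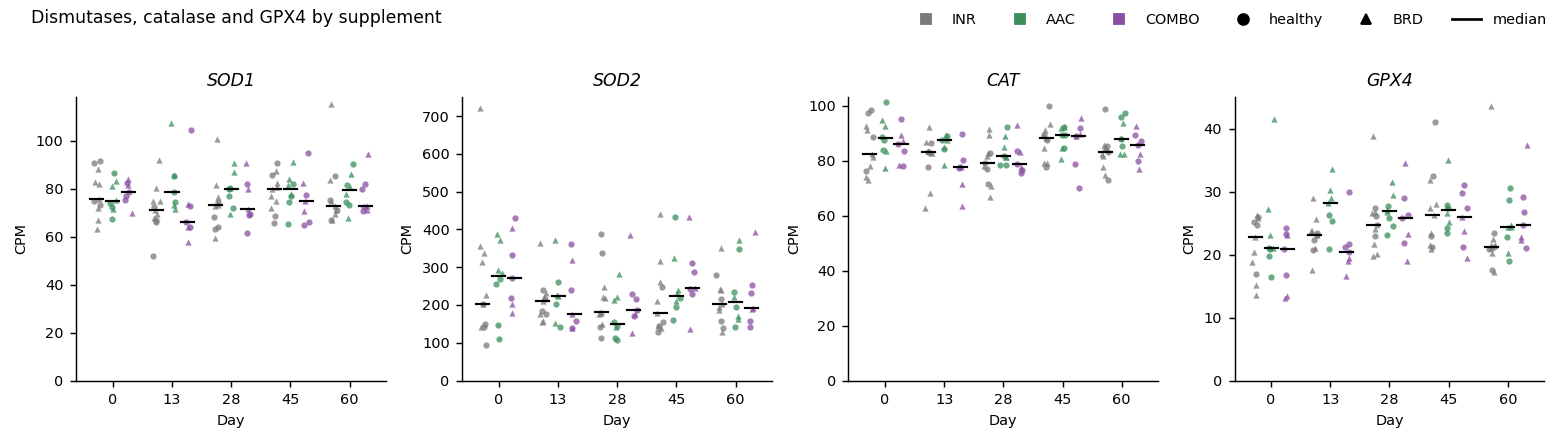
Levels of SOD1, SOD2, CAT and GPX4 in CPM by day for INR (grey), AAC (green) and COMBO (purple), with circles for healthy animals, triangles for BRD animals and black bars at the medians of each supplement and day. The groups overlap on each day, and on day 13 the AAC median is the highest of the 3 in all 4 panels.

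The change from day 0 was compared between supplements as well, since it starts from each animal's own level. COMBO animals had been drenched before shipment, so that their day 0 level already followed a drench. By edgeR 0 of the 10 genes passed in the 12 comparisons, 8 of 120 tests had an unadjusted p below 0.05 (6.67% against 7.08% over all genes), and DESeq2 called 0 of the 10. Over all genes 2.12% passed between AAC and COMBO on day 13, 0.00528% and 0.243% between COMBO and INR on days 45 and 60, and 0% in the others. TXNRD1 on day 13 changed by 0.21 ± 0.09 more in AAC than in COMBO (SE, log2 scale, unadjusted p = 0.0193, FDR = 0.261), with 5 of 7 AAC animals and 1 of 7 COMBO animals above their own day 0. SOD1 on day 13 changed by 0.26 ± 0.12 more in AAC than in INR (SE, unadjusted p = 0.0296, FDR = 0.508), with 4 of 7 AAC animals and 2 of 11 INR animals above day 0. GPX4 on day 60 changed by 0.45 ± 0.18 more in COMBO than in INR (SE, unadjusted p = 0.0120, FDR = 0.259), with 6 of 7 and 6 of 11 animals above day 0. With counts summed over days 13 to 60 per animal, 0 of the 10 genes passed by edgeR or DESeq2, where 0.00493% of genes passed between AAC and INR, 0.00493% between AAC and COMBO and 0% between COMBO and INR. Of 30 tests, 1 had an unadjusted p below 0.05 (3.33% against 6.87% over all genes), which was TXN between AAC and INR (log2 difference 0.18, edgeR unadjusted p = 0.0472, FDR = 0.550).

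The 10 genes did not vary as a single block across the libraries. The correlations describe all 59 healthy and 70 BRD libraries, which share animals and days, and carry no test. TXN and both peroxiredoxin genes varied together with SOD1 and GLRX3, with r of log2 CPM of 0.803 for PRDX1 and TXN, 0.772 for PRDX1 and GLRX3, 0.720 for PRDX2 and GLRX3, and 0.716 for SOD1 and TXN. TXNRD1 had lower values, with r of 0.0804 with TXN, 0.235 with SOD1, 0.275 with PRDX2 and 0.377 with PRDX1 and with GLRX3. SOD2 stood apart, and the 8 negative values among the 45 pairs were all with SOD2, from -0.00 with TXN to -0.37 with PRDX2, and -0.16 with SOD1. The median over the 45 pairs was 0.295.

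SOD2 followed the summed neutrophil markers, with r of 0.693 over all libraries and of 0.755, 0.682, 0.684, 0.711 and 0.644 within days 0, 13, 28, 45 and 60, and the monocyte markers with r of 0.453. SOD1 followed the T cell markers with r of 0.587, between 0.357 and 0.752 within days, and GLRX3 the B cell markers with r of 0.471, between 0.136 and 0.603 within days. GPX4 and the erythroid markers had r of 0.421, between 0.175 and 0.480 within days. SOD1 and CAT, both known from red cells, had r of 0.01 and -0.02 with the erythroid markers, PRDX2 0.217 and GPX1 0.239.

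Among the genes most like SOD2 over the libraries were SOCS3, a feedback inhibitor of cytokine signalling (r = 0.769), and NOD2, a sensor of bacterial peptidoglycan (r = 0.746). Those most like SOD1 were H2AFV (r = 0.852), RTRAF (r = 0.825) and CFAP20 (r = 0.825). For PRDX1 they were MDH1, a malate dehydrogenase (r = 0.905), PSMD2 and ALYREF, for TXN ATP5PF, a subunit of ATP synthase (r = 0.880), RPN2 and PSMD8, and for GLRX3 the splicing factors SNRPB (r = 0.926), EIF4A3 and U2AF1. GPX4 was most like ACSS2 (r = 0.776), WDR1 and TPI1, and PPIA and TRIM28 were among those most like PRDX2. CAT was most like TSPAN3 (r = 0.690), HNRNPUL2 and AP2B1, and TXNRD1 most like YWHAQ (r = 0.715), GART and FAM53B. For GPX1 no gene went above 0.444, the value of STK11, followed by MGC137036 and FAM98C.

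The other genes of the pathway moved unevenly after day 0. Of 21 further dismutase, peroxidase and reductase genes, 2, 3, 2 and 4 rose and 6, 6, 4 and 6 fell on days 13, 28, 45 and 60. SRXN1, the sulfiredoxin that repairs over-oxidized peroxiredoxins, rose on each day, with log2 changes of 0.70, 0.84, 0.36 and 0.63, while TXNIP, an inhibitor of thioredoxin, fell by 0.49 and 0.64 on days 13 and 28 on the log2 scale. PRDX5 fell by 0.42 on day 13 and by 0.30 on day 60. SOD3, the extracellular dismutase that also uses copper and zinc, rose by 1.23 on day 28, and CCS, the chaperone that loads copper into SOD1, fell by 0.20 on day 45 on the same scale. The other genes named were GLRX2, which fell by 0.21 on day 45, and TXNRD2, the mitochondrial thioredoxin reductase, which rose by 0.14 on day 60.

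Of 16 genes for glutathione and NADPH supply, 2, 1, 2 and 2 rose and 8, 6, 2 and 4 fell, among them MGST1, a microsomal glutathione transferase, with log2 changes from -0.76 to -0.54 over the 4 days. Of 12 genes of the NRF2 pathway, which governs many antioxidant genes, 0, 0, 2 and 1 rose and 3, 2, 3 and 2 fell, and OSGIN1 and FTL, the ferritin light chain, fell on every day. Of 16 selenoprotein genes and genes of their synthesis, 1, 3, 2 and 4 rose and 5, 3, 4 and 4 fell, with SELENOW higher by 0.32 on day 45 and SELENOT lower on each day, by 0.14 to 0.22 on the log2 scale. Of the 8 genes of the NADPH oxidase, none rose, and 3, 4, 0 and 2 fell, among them NCF4 at -0.31 on day 13 and NCF1 at -0.42 on day 28. The background shares are those given for the change from day 0. The medians of these lists over the 4 days lay between -0.15 and 0.03 on the log2 scale, against -0.00 to 0.01 over all genes.

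For the disease label on day 0, 0 genes of these 5 lists passed by edgeR, and their median log2 differences lay between -0.03 and 0.04. Between AAC and COMBO on day 13, where 0.929% of genes passed, 2 of the 12 NRF2 pathway genes were higher in AAC, which were BLVRB, biliverdin reductase B (0.92 ± 0.25, SE, FDR = 0.0750), and FTH1, the ferritin heavy chain (0.62 ± 0.17, SE, FDR = 0.0759). The erythroid markers had a median log2 difference of 1.69 in the same comparison, with none called, and their part in these differences was not tested. The other 4 lists had no gene that passed there.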

How the data were processed

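RNA of whole blood was sequenced as stranded mRNA libraries. The authors deposited a table of read counts per gene: per their notes reads were checked with FastQC 0.11.9, trimmed with Trimmomatic 0.39, aligned to ARS-UCD1.3 with HISAT2 2.1.1 and assembled with StringTie 2.2.0, whose counts are derived from coverage, so that reads of near-identical gene copies may be split. The authors left out 1 library, of AAC healthy animal 48 on day 13. The number of columns that matched no sample was 0. The 10 genes and the other lists were chosen with earlier results of these data known.

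The counts were filtered with edgeR 4.0.16 (R 4.3.3), scaled by TMM and tested with the quasi-likelihood test with a common dispersion and Benjamini-Hochberg adjustment over all genes, at an FDR of 0.10. The disease label and the supplement pairs were fitted with 30 means of supplement, label and day, and the change from day 0 with animal as a block. Counts summed per animal over days 13 to 60 gave 1 value per animal. SE and intervals are those of the log2 fold change. The animal number in the labels pairs the libraries: deviations from the group means had a median correlation of 0.371 over 256 pairs of libraries of the same animal and of -0.01 over 6400 pairs of different animals, and 26 of 26 animals were above 0.1. Total counts of 31613545 to 61692136 per library limit counting error only. Levels are CPM, and correlations used log2 CPM with a prior count of 2. All 10 genes were described in each comparison, with at most the 3 called genes of smallest p from each other list and the 3 genes most alike by r. Some items under these rules are not reported here. DESeq2 1.42.0, limma 3.58.1, other scalings, filters and dispersions, leaving out animals or libraries, each label alone and pen as a term were alternatives. The scripts were tested on simulated data. Figures were drawn with matplotlib 3.10.9 (Python 3.11.15).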

Additional observations from a re-analysis of the deposited data

Results flagged for a closer look

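Samples far from the rest of their own group of 4 to 7 animals, by a gap test on the highest or lowest value, were found in 27 of 240 groups of 1 gene, supplement, label and day, or 11.2%, where chance flags about 1 in 20 groups. The genes share libraries, so that 1 library can be counted under several genes. INR BRD animal 40 was highest on day 60 in SOD1 (115.2 CPM, the next animal 83.7), GPX4 (43.6), TXN (54.3) and GLRX3 (76.2), and on day 28 in GPX4 (38.9), PRDX2 (152), TXN (56.7), TXNRD1 (192) and GLRX3 (72.1). In SOD2, INR BRD animal 43 was highest on day 0 (720 CPM, the next animal 355) and INR BRD animal 23 on day 13 (363). AAC BRD animal 21 was highest on day 0 in GPX1 (137 CPM, the next animal 21.6) and TXN (49.7), and lowest in GPX4 on day 60 (20.2) and in GLRX3 on days 45 and 60 (39.8 and 34.7).

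COMBO healthy animal 3 was highest on day 13 in GPX4 (29.9 CPM) and TXN (57.2) and on day 28 in GPX1 (38.9). GPX1 was also highest in INR healthy animal 50 on day 0 (8.53 CPM) and in INR BRD animal 27 on day 45 (67.8). GPX4 was lowest in INR healthy animal 10 on day 0 (16.9). PRDX1 was highest in AAC healthy animal 48 on day 28 (159) and lowest in INR healthy animal 30 on day 60 (84.8), and PRDX2 was highest in animal 48 on day 60 (132). TXN was lowest in INR healthy animal 50 on day 13 (20.9), and TXNRD1 was highest in AAC BRD animal 31 on day 45 (190).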

How the results depend on the processing

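The count of called genes among the 10 kept within 1.5 times the value given under DESeq2, RLE size factors, a trended dispersion, no filter, a stricter filter, an FDR of 0.05, and without the day 60 library of animal 40 or, chosen after seeing the data, the day 13 library of animal 50. For the change from day 0 these settings gave 10 to 13 calls against 12. Over the 31 differences of a gene in a comparison that were followed through each alternative, and so not over every gene and day, 968 values kept their side of the threshold, 50 lost it, 7 gained it and 1 turned its direction. The median of all genes moved by -0.02 to 0.01 (log2) between TMM and RLE, and none of the 12 called changes turned its sign. For the supplement pairs at each day and the disease label at each day, DESeq2 called 1534 and 235 genes in all, against 300 and 5.

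With no replicate block 7 of the 12 calls remained in the change from day 0, and those lost were GPX4 on day 13, SOD2 on day 28 (FDR = 0.101), GPX1 on day 45 and TXN and TXNRD1 on day 60. In healthy animals alone 8 calls were made, and in BRD animals alone 4. The SOD2 change on day 13 turned to 0.00573 in healthy animals alone (FDR = 0.995). With pen as a term, in 4 pens with 15 animals and none of COMBO, the disease label gave 2 calls, and in BRD animals alone the supplement pairs gave 2. The cause was not tested, and these fits hold fewer samples.

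Leaving out each animal in turn gave 9 to 14 calls among the 10 for the change from day 0, 0 to 0 for the disease label, and 0 to 1 for the supplement pairs, while over all genes the calls ran from 20995 to 25486, from 0 to 320 and from 23 to 1692. The 1 call of a supplement pair was GPX4 between AAC and COMBO on day 0 without animal 16 (0.48, FDR = 0.0662, where 5.72% of genes passed). Summed per animal, it gave 0 to 0 for the label and for the supplements. The comparisons of the change between labels and between supplements were not rerun without single animals.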
